A study of Mus musculus with 4 samples.

Results

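The genes of MHC class I and class II antigen presentation were compared in bone marrow RNA of mature (3 months) against elderly (24 months) mice. The group held 10 genes of 33924 gene symbols in the count tables and was set by name: the class II chains H2-Aa, H2-Ab1 and H2-Eb1, the class II chaperone Cd74, the class II transactivator Ciita, the class I heavy chains H2-K1 and H2-D1, their light chain B2m, and the peptide transporter subunits Tap1 and Tap2. Counts of transcripts were summed per symbol. Of the 10 genes, 9 had at least 1 base on which a read could be counted, and the same 9 passed the filter on low counts.

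All mice were wild-type C57Bl/6, and the study describes them as male. Each age had 2 libraries. The study describes pooling the RNA of 3 or 4 mice per group, whereas the labels number each library as a mouse. Whether the 2 libraries of an age came from separate pools is not stated. An SD with n = 2 and every p-value therefore measure the spread between libraries, which cannot be taken as the spread between animals. By its labels the material was whole bone marrow, whereas the study describes cells sorted from marrow as Lin-LEPR+, that is, negative for Ter119, CD31 and CD45 and positive for the leptin receptor. Libraries held between 10472117 and 15650518 counted reads. Stromal markers were abundant at both ages. Lepr was at 6010 ± 529 CPM in mature and 4950 ± 1190 CPM in elderly libraries (SD, n = 2). CPM are reads scaled by library size and TMM factor, a correction for composition. Ptprc, which encodes CD45, had between 1 and 12 counts per library, but on 152 countable bases only. Cd53, another leukocyte marker, had 665 and 308 counts in mature and 1428 and 1591 in elderly libraries on 2802 countable bases.

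Class I molecules consist of a heavy chain such as H2-K or H2-D paired with beta-2-microglobulin, and display peptides from cytosolic proteins on nearly all nucleated cells. The peptides are cut by the proteasome and pumped into the endoplasmic reticulum by the TAP1-TAP2 transporter. Class II molecules are pairs of an alpha and a beta chain, H2-Aa with H2-Ab1 for the I-A molecule, and display peptides from the endosome mainly on B cells, dendritic cells and macrophages. Cd74, the invariant chain, occupies their groove until H2-DM exchanges it for peptide, and Ciita switches the whole class II set on through factors bound at a shared promoter module that includes the Y box. H2-Eb1 encodes the beta chain of the I-E molecule. In C57Bl/6 mice its alpha chain gene carries a deletion and is annotated as a pseudogene, so that no I-E protein is displayed.

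What the counts could show differed from gene to gene. Reads on bases shared by more than 1 annotated transcript were not counted: none of the 25621 transcripts without a base of their own had a count in any library. A base of a transcript was therefore countable only if no other transcript covered it on either strand. All but 3 of the genes lie in the MHC on chromosome 17, from H2-K1 (chr17:34132962-34137278) over Tap1 (chr17:34324498-34334170), Tap2 (chr17:34340472-34353266), H2-Ab1 (chr17:34400154-34406363), H2-Aa (chr17:34406276-34424772) and H2-Eb1 (chr17:34442828-34453144) to H2-D1 (chr17:35399675-35404444) in mm9. The last bases of H2-Ab1 and H2-Aa overlap on opposite strands. B2m lies at chr2:121973422-121978819 and Ciita at chr16:10480237-10527657.

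Cd74 lost every base to this rule. Its 3 transcripts cover each other, and although 1398 of its 1410 exonic bases lie in no other gene, 0 were countable. Its 0 counts in all 4 libraries say nothing about its expression, and it was not tested.

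B2m, with a single transcript, kept all 860 of its bases, of which 357 are coding. H2-Eb1 kept 531 bases, of which 146 lie in coding exon and 374 in untranslated exon of the reference coding transcript. For H2-Aa, 742 of 867 countable bases lie in introns of the reference transcript, and for H2-Ab1 433 of 472. H2-K1 kept 355 bases, 310 of them intronic, and H2-D1 kept 713, of which 338 are intronic and 366 lie outside the reference transcript. All 1291 countable bases of Tap1 were intronic, against 324 of 1103 for Tap2, whose other 779 were untranslated exon. Ciita had 2393 intronic bases of 2676. Hence most countable bases of B2m, H2-Eb1 and Tap2 lie in exons of the reference transcript, and most of those of H2-Aa, H2-Ab1, Ciita, H2-K1, H2-D1 and Tap1 do not.

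**Figure D1:**
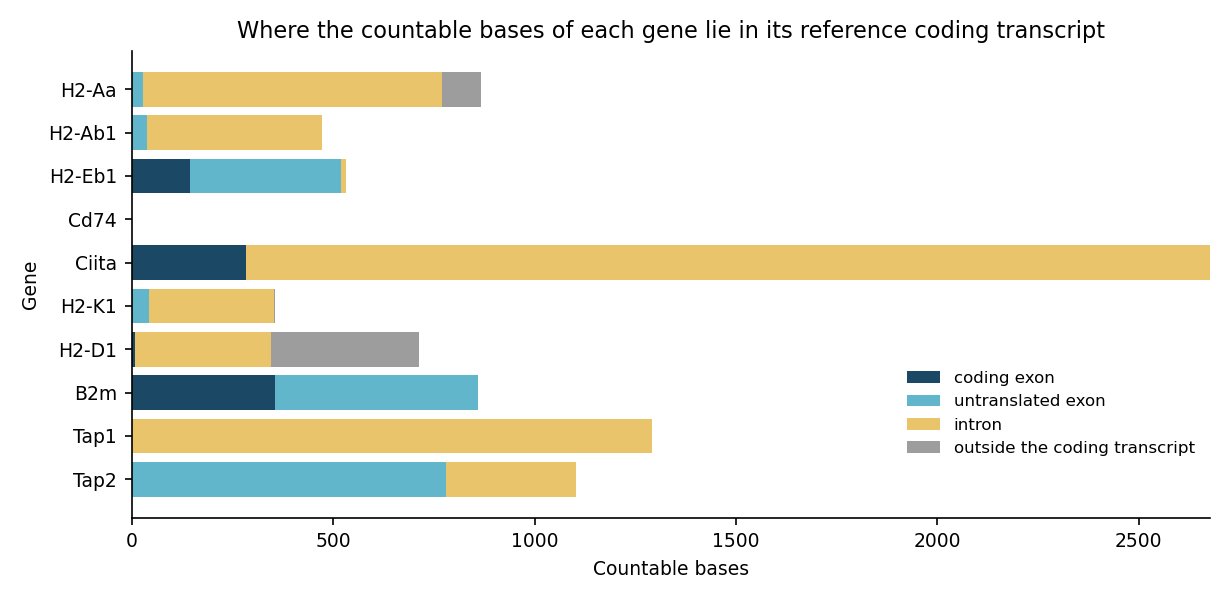
Countable bases (x axis) of each of the 10 genes (y axis), divided by where they lie in the reference coding transcript of the gene. B2m (860 bases) and H2-Eb1 (531) are mostly exonic, Tap1 (1291) is wholly intronic, and Cd74 has 0.

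A further limit was sequence shared with other loci. For B2m, H2-Eb1, H2-Aa, H2-Ab1 and Tap1, 100% of the positions at which a 40-base read would be countable occurred once in the genome. The share was 99.7% for Tap2, 95.4% for Ciita and 92.3% for H2-D1, but 48.2% for H2-K1. It was 18.8% for H2-K1-007, the processed transcript that carried most of the H2-K1 counts, so that reads of the related class I genes cannot be told apart from H2-K1 there when the second read of a pair does not place them.

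Examples of the countable stretches are shown in mouse build NCBIM37 (mm9), read 5′ to 3′ on the strand of the gene. H2-Eb1-001 is the longest countable coding stretch of H2-Eb1 (chr17:34451988-34452098, plus strand, 111 bases of coding exon). H2-K1-007 is the 224-base intronic stretch that held most counts of H2-K1 (chr17:34135992-34136215, minus strand). H2-K1-009 (chr17:34134701-34134726, minus strand, intron) and H2-D1-004 (chr17:35403412-35403426, plus strand, intron) show how short a window could be and still collect reads.
H2-Eb1-001: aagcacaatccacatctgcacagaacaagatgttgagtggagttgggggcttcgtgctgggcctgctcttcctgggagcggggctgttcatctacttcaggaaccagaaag
H2-K1-007: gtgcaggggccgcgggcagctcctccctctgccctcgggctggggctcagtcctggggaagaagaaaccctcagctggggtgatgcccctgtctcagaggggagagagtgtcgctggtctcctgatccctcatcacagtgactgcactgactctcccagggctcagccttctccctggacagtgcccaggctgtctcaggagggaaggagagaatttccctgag
H2-K1-009: tttacccaatggctcatgtggattcc
H2-D1-004: cttttcttttcacag

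The promoters of the class II chains that had counts are shown because their common control is the textbook property of this gene set. Each sequence is the 150 bases before the annotated start of the reference transcript in NCBIM37, with the Y box GATTGG, searched on both strands, in capitals: H2-Aa at chr17:34424773-34424922 (minus strand), H2-Ab1 at chr17:34400004-34400153 and H2-Eb1 at chr17:34442678-34442827 (both plus strand).
H2-Aa: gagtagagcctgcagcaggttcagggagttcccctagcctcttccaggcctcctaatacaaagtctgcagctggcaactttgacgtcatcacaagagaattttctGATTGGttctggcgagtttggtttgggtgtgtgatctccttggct
H2-Ab1: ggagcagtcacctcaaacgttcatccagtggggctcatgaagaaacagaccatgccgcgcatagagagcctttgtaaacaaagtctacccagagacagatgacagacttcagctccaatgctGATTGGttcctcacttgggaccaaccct
H2-Eb1: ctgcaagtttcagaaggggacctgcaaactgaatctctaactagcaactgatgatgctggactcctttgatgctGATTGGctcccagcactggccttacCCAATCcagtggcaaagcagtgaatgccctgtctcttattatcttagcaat
The box lies at bases -45 to -40 from the start in H2-Aa, -28 to -23 in H2-Ab1 and -76 to -71 in H2-Eb1, which also holds the reverse complement at bases -51 to -46. These letters occur in 3551 of 22380 promoters of protein-coding genes (15.9%) when 250 bases before the start are searched. A match describes the letters and not a bound factor. Of the 250 bases before the start of H2-Eb1, 88 lie in annotated exon of another transcript, against 0 for H2-Aa and 0 for H2-Ab1.

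Among the class II chains, H2-Eb1 rose in elderly libraries. It had 60 and 67 counts in mature libraries and 223 and 245 in elderly libraries, which is 5.16, 5.75, 20 and 16.2 CPM. Both elderly libraries were far above both mature libraries, and the counting intervals of the lowest elderly and highest mature library (14.2 to 18.3 and 4.45 to 7.30 CPM, exact 95% Poisson) did not meet. The mean went from 5.45 ± 0.411 to 18.1 ± 2.73 CPM (SD, n = 2). The log2 fold change was 1.73 with an SE of 0.30 (95% interval 1.08 to 2.37) and an adjusted p of 0.00788 in edgeR's quasi-likelihood test. H2-Eb1 was the only one of the 9 genes tested that was called, while H2-Aa was the other with an unadjusted p under 0.05 and 0 genes were lower at that level. Over all genes, 487 of 21340 were called higher (2.28%) and 96 lower (0.45%), and 1 of 9 is a count too small to read against such shares. DESeq2 also called 1 of the genes, H2-Eb1, with an adjusted p of 0.000251.

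The call of H2-Eb1 depended on having both elderly libraries. Without elderly replicate 1 the log2 fold change was 1.55 with an adjusted p of 0.167, and without elderly replicate 2 it was 1.87 with an adjusted p of 0.602, where edgeR called 0 genes in all and 1638 of 20580 had an unadjusted p under 0.05. With the dispersion of 0.2 that the study set for edgeR's exact test the adjusted p was 0.322. Of the counts of H2-Eb1, those of H2-Eb1-001 were 60, 67, 222 and 243 on 520 bases, with a log2 fold change of 1.76 (SE 0.33) and an adjusted p of 0.00381 over 42351 transcripts. H2-Eb1-201, with 11 countable bases, held the other 3 counts, all in elderly libraries.

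H2-Aa, the I-A alpha chain, had 9 and 1 counts in mature and 35 and 24 in elderly libraries, or 0.775, 0.0857, 3.14 and 1.58 CPM. The ages did not overlap, which held for elderly above mature in 22.9% of all genes tested and for the reverse in 18%. The log2 fold change was 2.42 (SE 0.83, 95% interval 0.62 to 4.22), and the gene was not called in edgeR's quasi-likelihood test (adjusted p = 0.204). Most of these reads fell on H2-Aa-002, a processed transcript with 508 countable bases, with 9, 1, 29 and 15 counts. H2-Aa-003, a retained intron, had 0 counts in both mature and 5 and 8 in elderly libraries, at least 1.93-fold higher against a floor of 3 counts per mature library. The coding transcript H2-Aa-001, on 29 bases, had 1 count in all.

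H2-Ab1, the I-A beta chain, had 9 and 0 counts in mature and 32 and 11 in elderly libraries, or 0.775, 0, 2.87 and 0.726 CPM. Here the second elderly library lay just below the first mature library, and the ages overlapped. The log2 fold change was 2.17 (SE 1.08) with a 95% interval from -0.18 to 4.51 and an adjusted p of 0.495 (edgeR). A count of 0 in mature replicate 2 allows up to 0.316 CPM (exact 95% Poisson interval). Leaving out 1 library moved the log2 fold change of H2-Ab1 to between 0.86 (without elderly replicate 1) and 7.49 (without mature replicate 1, where mature is left with a count of 0), and that of H2-Aa to between 1.54 (without mature replicate 2) and 4.62 (without mature replicate 1). Without mature replicate 1 both were called, with adjusted p-values of 0.00372 and 0.00377 (edgeR).

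**Figure D2:**
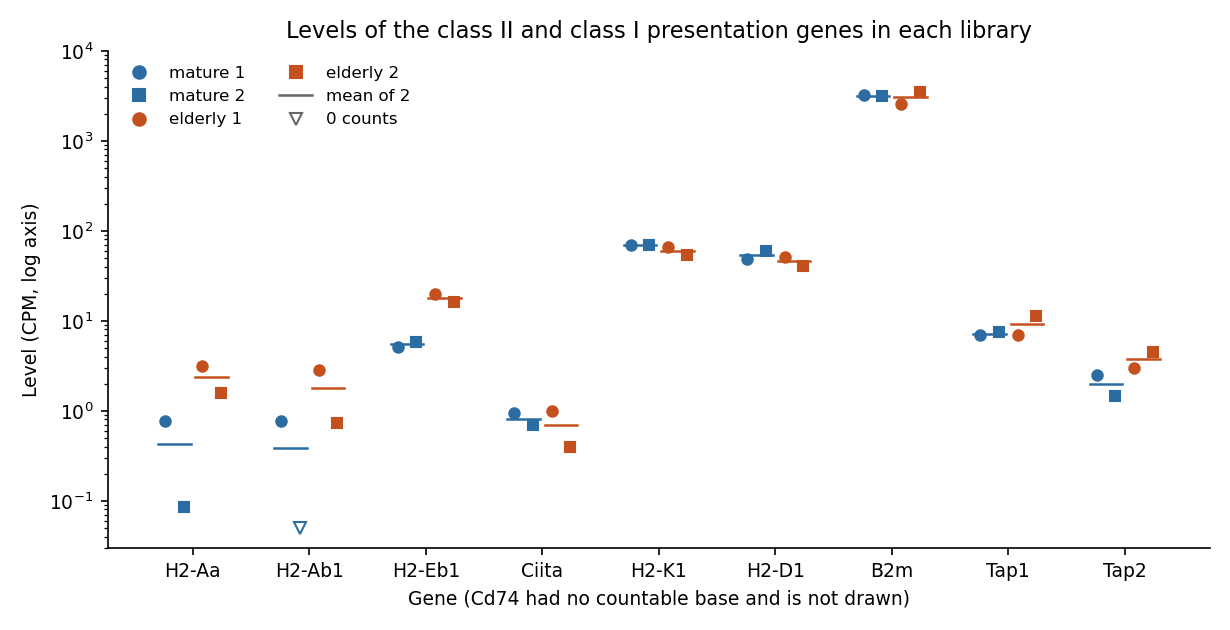
CPM of 9 genes in each of the 4 libraries (log axis, blue for mature and orange for elderly, lines for the mean of 2 libraries, open triangle for 0 counts). The elderly libraries of H2-Eb1 (20 and 16.2 CPM) lie above the mature libraries (5.16 and 5.75 CPM), while those of B2m (2550 and 3510 CPM) lie on either side of the mature libraries (3190 and 3120 CPM).

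Summed over H2-Aa, H2-Ab1 and H2-Eb1, class II reached 6.71 and 5.83 CPM in mature and 26 and 18.5 CPM in elderly libraries. The mean rose from 6.27 ± 0.624 to 22.3 ± 5.36 CPM (SD, n = 2), 3.55 times the mature level on average, given as a description without a test. H2-Eb1 made up most of this sum in every library. In bulk RNA a change in the number of cells that express a gene and a change in its RNA per cell cannot be told apart, here and in each result that follows.

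Some markers of haematopoietic cells were also higher in elderly libraries. The summed level of 12 macrophage and monocyte markers was 554 and 356 CPM in mature and 885 and 1010 CPM in elderly libraries, and 7 of the 11 tested were called higher, among them C1qb, a chain of complement C1q, with 25, 4, 102 and 264 counts (log2 fold change 3.41, SE 0.58, adjusted p = 0.00735 in edgeR's test). Lyz2, which neutrophils also express, made up most of that sum, with 5777, 3619, 8507 and 12938 counts. The defining markers of the list had few counts at both ages. Csf1r had 12, 29, 22 and 24 counts on 636 countable bases, and Emr1 2, 0, 2 and 5 on 106 only. Cd68 went the other way, with 122, 202, 108 and 130 counts, and was not called. Neutrophil markers, 5 of 7 called, went from 2000 and 1150 to 4310 and 4230 CPM in sum. Erythroid markers, 3 of 5 called, went from 63.3 and 34.4 to 346 and 225 CPM.

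Markers of B cells, which carry class II, summed to 22.1 and 23.9 CPM in mature and 40.2 and 32.6 CPM in elderly libraries. edgeR called 0 of the 8 tested, with 3 at an unadjusted p under 0.05, and DESeq2 called 0. Cd79a had 119, 109, 223 and 209 counts, with the ages apart, and was not called. Ms4a1 had 0 counts in mature and 9 and 11 in elderly libraries, on 467 countable bases. Cd79b and Cd22 had 0 in all 4, but on 236 and 219 countable bases only. Of the T-cell markers, which stand for cells without class II, edgeR called 0 of 5 tested (3 at an unadjusted p under 0.05, 1 called by DESeq2), and their sum went from 4.22 and 6.26 to 17.6 and 9.44 CPM.

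The dendritic cell markers did not separate the ages as clearly, with 83.8 and 104 CPM in mature and 111 and 105 CPM in elderly libraries. Zbtb46 made up most of that sum, with 871, 1118, 984 and 1404 counts. edgeR called 0 of 6 tested (1 at an unadjusted p under 0.05, 0 called by DESeq2). Ccr7 had 80, 73, 231 and 163 counts, with the ages apart, and was not called (adjusted p = 0.0907, edgeR). Itgax, the defining marker, had 0 counts in all libraries on 22 countable bases, and Flt3 had 0, 0, 2 and 4. Plasmacytoid dendritic cell markers had 0 of 4 called by edgeR (0 at an unadjusted p under 0.05, 0 called by DESeq2) and summed to 97.3 and 96.4 CPM in mature and 83.8 and 86.2 CPM in elderly libraries. Bst2 (648, 715, 513 and 914 counts) and Tcf4 (483, 409, 418 and 384) made up nearly all of that sum. Siglech had 0, 0, 1 and 0 counts and Ccr9 0, 0, 2 and 2, but on 98 and 76 countable bases only. The markers of the stromal cells themselves had 0 of 8 called (2 lower at an unadjusted p under 0.05, 0 called by DESeq2), with all 8 log2 fold changes below 0. Of the general leukocyte markers 1 of 4 was called higher (Cd53, adjusted p = 0.0201, edgeR), and of the plasma cell markers 2 of 6 (Igj and Prdm1). The plasma cell list was split, with 3 log2 fold changes above 0 and 3 below. Sdc1 (890, 734, 470 and 841 counts) and Xbp1 (677, 597, 502 and 636) had lower CPM in both elderly libraries and were not called. The part of any of these cell types in the level of the class II genes was not tested.

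**Figure D3:**
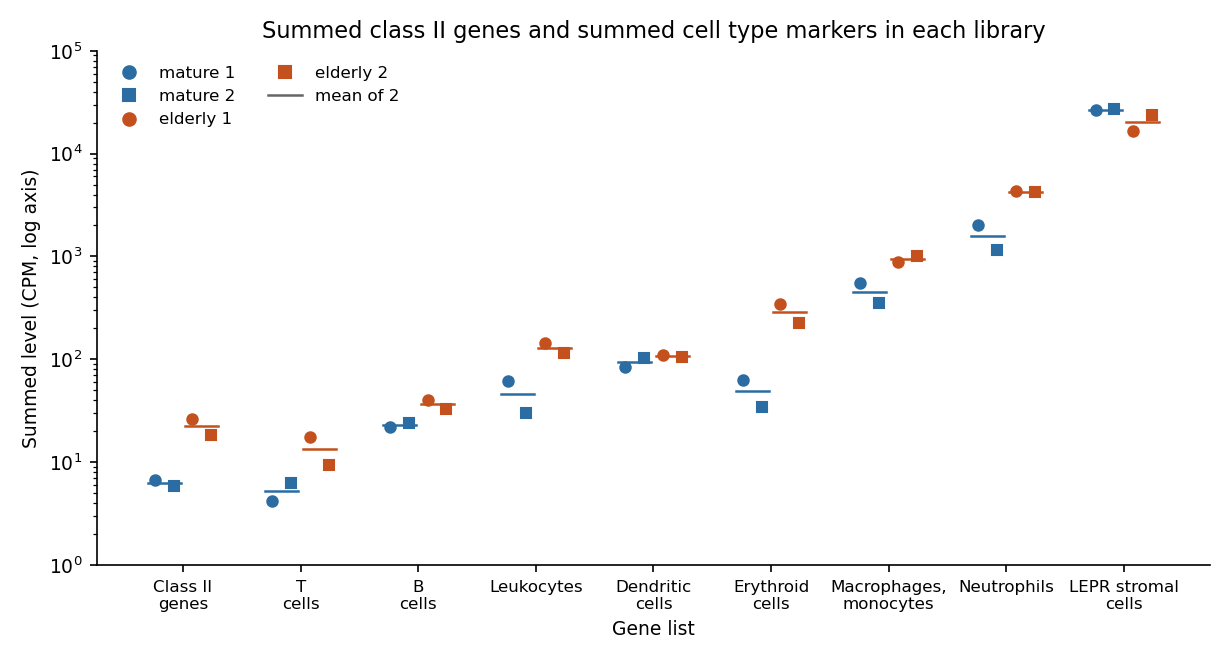
Summed CPM of the class II genes and of 8 marker lists in each library (log axis, blue for mature and orange for elderly, lines for the mean of 2 libraries). Class II rises from 6.71 and 5.83 to 26 and 18.5 CPM. The sums of the leukocyte (61.5 and 30.2 to 143 and 114 CPM), T cell, B cell, macrophage and monocyte, erythroid and neutrophil markers are also higher in both elderly libraries. That of the dendritic cell markers is higher by little (83.8 and 104 to 111 and 105 CPM), and the sum of the LEPR stromal markers is lower.

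Ciita, the transactivator that induces class II genes, had 11 and 8 counts in mature and 11 and 6 in elderly libraries (0.947, 0.686, 0.988 and 0.396 CPM). Of its 2676 countable bases 2393 are intronic, so these few counts do not show that its RNA was scarce. The log2 fold change was -0.26 (SE 0.88, adjusted p = 0.955, edgeR), and its 95% interval from -2.17 to 1.64 holds changes as large as that of H2-Eb1. The symbol stands for a pair of annotated genes, 1 nested in the other. The larger had 5, 6, 7 and 5 counts and the nested one 6, 2, 4 and 1, so neither entry separated the ages. The coding transcript Ciita-202 had 1 count, in elderly replicate 2, on 283 bases.

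Among the regulators that act with Ciita, only Irf8 was called. Irf8 is a transcription factor of B cells and myeloid cells that takes part in inducing Ciita. It had 437 and 504 counts in mature and 1029 and 1202 in elderly libraries. Its level went from 40.4 ± 3.96 to 85.9 ± 9.28 CPM (SD, n = 2), with a log2 fold change of 1.09 (SE 0.21) and an adjusted p of 0.0162 (edgeR). Sfpi1 (PU.1), another such factor, had 54, 59, 122 and 172 counts and missed the threshold at an adjusted p of 0.0689. Of 9 regulators tested, 1 was called higher and 0 lower by edgeR (0 lower at an unadjusted p under 0.05 and 0 by DESeq2), 7 had log2 fold changes below 0, and the median was -0.08 against 0.02 for all genes. The subunits of the RFX complex and of NF-Y, which bind the class II promoter module in all cells, were among these 7: Rfx5 had 37, 33, 20 and 39 counts, and Nfya 496, 484, 331 and 530.

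None of the genes that load class II molecules with peptide was called. Of 12 listed, 11 were tested, and edgeR called 0, with 4 higher and 0 lower at an unadjusted p under 0.05 and 0 called by DESeq2. Their median log2 fold change was 0.84, against 0.02 over all genes. It fell to -0.02 with edgeR's filterByExpr, which keeps fewer of these low genes. H2-Ob, the beta chain of the DM antagonist H2-DO, had 5, 4, 31 and 13 counts (log2 fold change 2.19, SE 0.83, adjusted p = 0.274 in edgeR's test). H2-Eb2 had 14, 0, 26 and 24 counts with an adjusted p of 0.592.

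The subunits of the peptide exchanger H2-DM are also named, having been chosen after their values were seen. H2-DMa had 14 and 23 counts in mature and 57 and 52 in elderly libraries (adjusted p = 0.201, edgeR). H2-DMb1 had 62, 35, 90 and 104 (adjusted p = 0.424). H2-DMb2 had 0 in both mature and 11 and 3 in elderly libraries, at least 2.30-fold higher against the floor of 3 counts per library. All 3 had both elderly libraries above both mature libraries, as did H2-Ob and H2-Eb2, which is 5 of the 11 tested against 22.9% of all genes. Among the endosomal proteases, Ctsl had 2601, 2263, 1909 and 3004 counts, with overlapping ages, and Lgmn 38, 34, 32 and 34, with both elderly libraries below both mature ones. Ctss, with 6 countable bases, had 0 counts in every library.

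**Figure D4:**
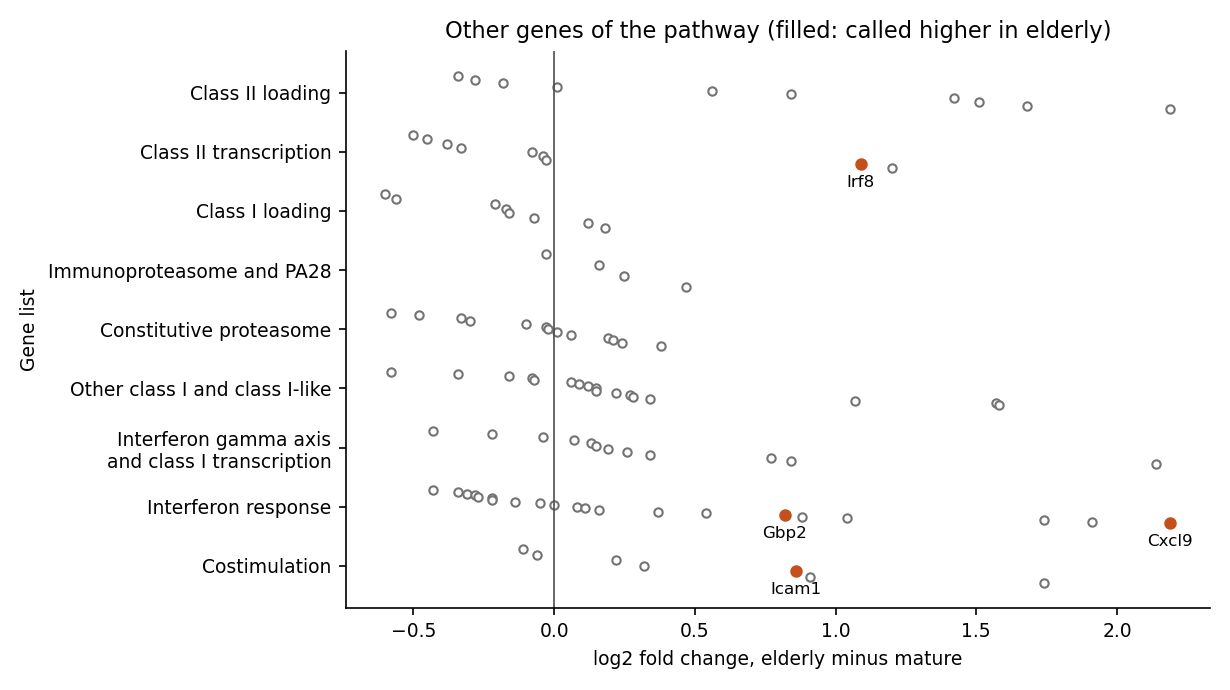
Log2 fold change, elderly minus mature (x axis), of each tested gene in 9 lists of the pathway (y axis). Filled orange points were called higher in elderly libraries (Irf8, Gbp2, Cxcl9 and Icam1), no gene was called lower, and 3 genes with 0 counts in both mature libraries (H2-DMb2, Oas1a and Tnfsf4) are left out.

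None of the class I genes was called. B2m, the light chain of all class I molecules, had by far the most counts of the genes. It had 37032 and 36365 counts in mature and 28334 and 53227 in elderly libraries, or 3190, 3120, 2550 and 3510 CPM. All of its bases were countable, whereas those countable in H2-K1, H2-D1 and Tap1 lie mostly outside exons of the reference transcript. The counts therefore do not rank the RNA levels of these genes. The elderly libraries lay on either side of the mature ones. The mean was 3150 ± 48.8 CPM in mature and 3030 ± 684 CPM in elderly libraries (SD, n = 2), and the log2 fold change was -0.06 (SE 0.21, adjusted p = 0.960, edgeR). The 95% interval ran from -0.52 to 0.41. Without elderly replicate 1 the sign turned, at a log2 fold change of 0.14.

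H2-K1 had 803 and 810 counts in mature and 732 and 807 in elderly libraries (69.1, 69.5, 65.8 and 53.2 CPM). Both elderly libraries were below both mature libraries, as in 18% of all genes. The log2 fold change was -0.22 (SE 0.21, 95% interval -0.68 to 0.24) and not called (adjusted p = 0.783, edgeR). H2-D1 had 563, 702, 576 and 613 counts (48.5, 60.2, 51.7 and 40.4 CPM), with overlapping ages, a log2 fold change of -0.24 (SE 0.23, 95% interval -0.73 to 0.25) and an adjusted p of 0.783 (edgeR). Both directions turned when only transcripts annotated as coding were summed, to log2 fold changes of 0.29 for H2-K1 and 0.43 for H2-D1, neither called (adjusted p = 0.856 and 0.666, edgeR).

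The windows behind these sums differed in direction. H2-K1-007, the 224-base window printed above, held 677, 589, 533 and 597 counts, with a log2 fold change of -0.28 (SE 0.25, adjusted p = 0.835, edgeR). H2-K1-009, on its 26 bases, held 79, 86, 75 and 80 counts. H2-K1-010, a coding transcript with 60 countable bases, held 45, 135, 121 and 123, and here mature replicate 1 stood below the other 3 libraries. The reference coding transcript H2-K1-001 had 2, 0, 3 and 7 counts on 44 bases.

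For H2-D1, the retained-intron transcript H2-D1-005 (323 bases) held 510, 616, 488 and 480 counts, and its log2 fold change was -0.32 (SE 0.26, adjusted p = 0.795, edgeR). H2-D1-001, whose 366 countable bases all lie outside the reference transcript, held 36, 66, 58 and 107, with a log2 fold change of 0.53 (SE 0.41, adjusted p = 0.785). H2-D1-004, on the 15 intronic bases shown, held 15, 17, 26 and 22 counts. No transcript of either heavy chain was called, in a fit that called 604 of 42351 transcripts higher (1.43%) and 93 lower (0.22%), or 1.65% in either direction. The sum of H2-K1, H2-D1 and B2m was 3300 and 3250 CPM in mature and 2660 and 3610 CPM in elderly libraries. Its elderly mean was 0.957 times the mature mean, or 0.854 times when B2m was left out.

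**Figure D5:**
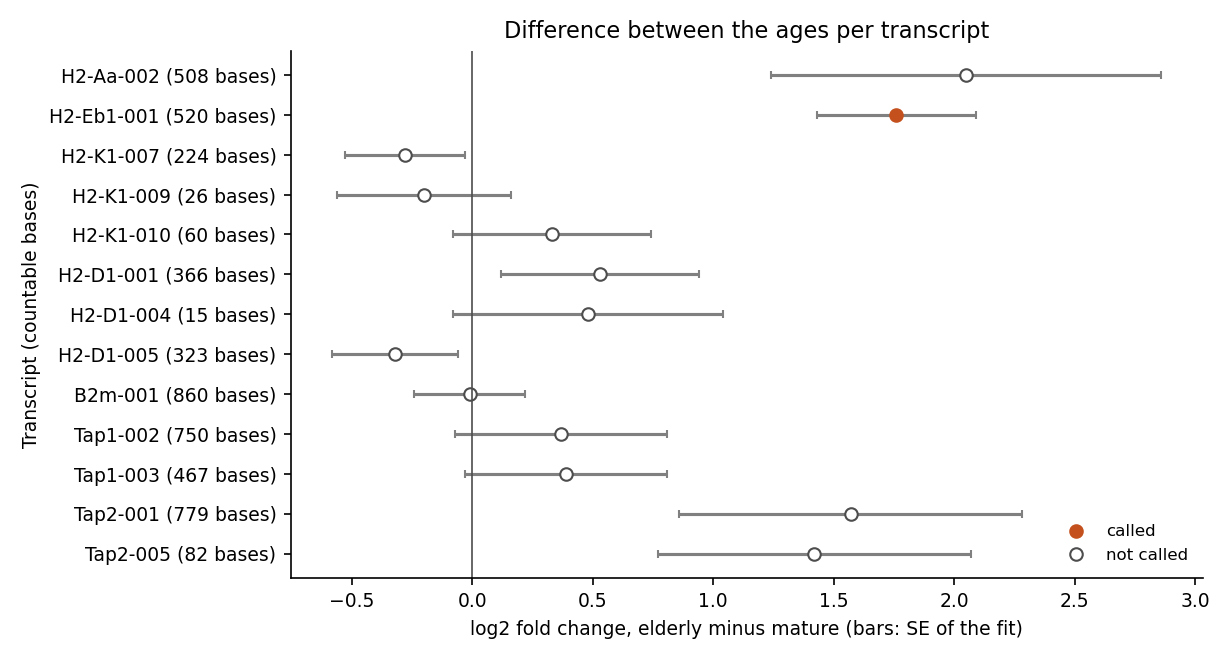
Log2 fold change, elderly minus mature (x axis, bars for the SE of the fit), of each transcript of the genes with a mean of at least 1 CPM (y axis, with its countable bases). H2-Eb1-001 (1.76) is the only one called. Of the class I heavy chain transcripts, 3 lie below 0 (H2-K1-007, H2-K1-009 and H2-D1-005) and 3 above.

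Tap1 and Tap2, the subunits of the peptide transporter, had low counts. Tap1 had 81 and 87 counts in mature and 77 and 171 in elderly libraries (6.97, 7.46, 6.92 and 11.3 CPM), and only elderly replicate 2 stood apart. The log2 fold change was 0.34 (SE 0.34, adjusted p = 0.796, edgeR), and -0.06 without that library. Its intronic windows differed by less than their errors, at 0.37 (SE 0.44) for Tap1-002 and 0.39 (SE 0.42) for Tap1-003 on the log2 scale.

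Tap2 had 29, 17, 33 and 68 counts (2.50, 1.46, 2.96 and 4.49 CPM), with both elderly libraries above both mature ones. The mean went from 1.98 ± 0.734 to 3.73 ± 1.08 CPM (SD, n = 2), and the log2 fold change of 0.92 (SE 0.48, 95% interval -0.12 to 1.96) was not called (adjusted p = 0.532, edgeR). The coding transcript Tap2-001, counted on untranslated exon, had 10, 3, 17 and 26 counts, with a log2 fold change of 1.57 (SE 0.71, adjusted p = 0.509). The intronic Tap2-002 had 9, 5, 0 and 5 counts, the other way round.

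The remaining steps of the class I route gave few differences. The 8 loading genes tested had a median log2 fold change of -0.17, and edgeR called 0 of them (0 at an unadjusted p under 0.05, 0 called by DESeq2). Tapbp, or tapasin, which tethers class I to the transporter, had 99, 78, 60 and 71 counts (log2 fold change -0.60, SE 0.34, adjusted p = 0.586), and the chaperone Hspa5 had 1139, 1831, 1185 and 1005 (adjusted p = 0.472). Of 4 immunoproteasome and PA28 genes tested, 0 were called by edgeR (0 at an unadjusted p under 0.05, 0 called by DESeq2). Psmb10 had 1010, 995, 972 and 1779 counts, Psme1 had 11, 15, 24 and 15, and Psmb9, with 1 countable base, had 0. Of 13 constitutive proteasome subunits 0 were called by edgeR (0 at an unadjusted p under 0.05, 0 called by DESeq2), with a median of -0.02. The largest difference by size among those of at least 1 CPM was that of Psmb5, with 26, 21, 21 and 13 counts (log2 fold change -0.58, SE 0.60), followed by Psma1 with 34, 37, 29 and 27.

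Of 25 other class I and class I-like genes listed, 22 were in the annotation and 17 were tested, and edgeR called 0 (0 at an unadjusted p under 0.05, 0 called by DESeq2). Their median log2 fold change was 0.15. H2-Q6 had 10, 8, 22 and 20 counts on 68 countable bases (log2 fold change 1.07, SE 0.67, adjusted p = 0.639), of which 18.7% of read positions occur once in the genome. Cd1d1, which presents lipids, had 219, 108, 120 and 123 counts (log2 fold change -0.58, SE 0.36, adjusted p = 0.632).

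Interferon gamma is the main inducer of both classes, acting on Ciita for class II and on Nlrc5 for class I. Of 12 genes of this axis, edgeR called 0 (2 higher and 0 lower at an unadjusted p under 0.05, 0 called by DESeq2). Cd274, the gene of PD-L1, had 262 and 354 counts in mature and 403 and 886 in elderly libraries (log2 fold change 0.84, SE 0.27, adjusted p = 0.175, edgeR), and elderly replicate 2 was the highest. Nlrc5, the class I transactivator, had 4774, 4723, 4568 and 7463 counts, with a log2 fold change of 0.15 (SE 0.20, adjusted p = 0.878).

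Of 22 interferon response genes tested, 2 rose and 0 fell in edgeR's test (5 and 0 at an unadjusted p under 0.05, 3 and 0 called by DESeq2), and their median log2 fold change was 0.10. The chemokine gene Cxcl9 had 50, 73, 201 and 458 counts and rose by a log2 fold change of 2.19 (SE 0.34, adjusted p = 0.00386, edgeR) on 278 countable bases. Gbp2, a guanylate-binding protein induced by interferon gamma, had 1552, 1596, 2474 and 3845 counts, with a log2 fold change of 0.82 (SE 0.19, adjusted p = 0.0430, edgeR). Isg15 (336, 474, 224 and 524 counts) and Ifit1 (593, 999, 428 and 1191), which type I interferon induces, overlapped between the ages, as did Gbp3 and Irgm1. Of the 22 tested, 7 had both elderly libraries above both mature libraries, Cxcl10 and Zbp1 among them, and 0 had both below. Over all genes these shares were 22.9% and 18%. A difference between genes of type I interferon and of interferon gamma was not tested.

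Of 8 costimulation genes, which give T cells the second signal beside the MHC-bound peptide, 1 was called higher and 0 lower by edgeR (0 lower at an unadjusted p under 0.05 and by DESeq2). The adhesion ligand Icam1 had 4139 and 4521 counts in mature and 7109 and 10840 in elderly libraries, and went from 372 ± 22.2 to 677 ± 54.2 CPM (SD, n = 2), with a log2 fold change of 0.86 (SE 0.19, adjusted p = 0.0320, edgeR). Cd80 and Cd86, the ligands of CD28, had 29, 70, 41 and 63 and 0, 7, 15 and 11 counts. Irf8, Cxcl9, Gbp2 and Icam1 were each no longer called when either elderly library was left out, as no gene of these lists then was.

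The order of the genes was read as CPM per kilobase of countable bases. In mature libraries it was B2m (3670 ± 56.7), H2-K1 (195 ± 0.687), H2-D1 (76.2 ± 11.6), H2-Eb1 (10.3 ± 0.774), Tap1 (5.59 ± 0.268), Tap2 (1.79 ± 0.666), H2-Ab1 (0.821 ± 1.16), H2-Aa (0.496 ± 0.562) and Ciita (0.305 ± 0.0689), each a mean ± SD of 2 libraries. Neighbours from Tap2 to Ciita overlapped. In elderly libraries the 4 highest kept their order, at 3520 ± 795, 168 ± 24.9, 64.6 ± 11.2 and 34.1 ± 5.15, followed by Tap1 at 7.05 ± 2.39, H2-Ab1 at 3.81 ± 3.22, Tap2 at 3.38 ± 0.976, H2-Aa at 2.73 ± 1.27 and Ciita at 0.259 ± 0.156, and the neighbours from Tap1 to H2-Aa overlapped. Intronic and exonic windows are not on 1 scale, so the rank of a gene read in introns is a rank of those reads. Of the genes read mostly on exons, B2m was 356 times H2-Eb1 per kilobase in mature and 103 times in elderly libraries. These 2 genes are not on 1 scale either. B2m kept all 860 of its bases, whereas the 531 of H2-Eb1 lie in separate stretches, where reads reaching into shared bases were not counted. The ratios therefore depend in part on the counting rule.

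The genes whose pattern over the 4 libraries was closest to the mean of the class II chains were sought among 9095 genes with a mean of at least 5 CPM. The measure was the root mean square difference of log2 CPM centred within each gene. The closest were Dtl (0.088), Hist1h2bk (0.11), Hist1h1b (0.12), Hist1h2bh (0.13) and Kntc1 (0.15). Dtl, for example, was at 7.66, 3.00, 25.4 and 13 CPM. Each chain had the same weight in the mean, also H2-Aa and H2-Ab1 with their low counts. Each of these close genes was higher in mature replicate 1 than in mature replicate 2, like H2-Aa and H2-Ab1. H2-Eb1 was not (5.16 and 5.75 CPM), so the names do not describe its own pattern. The closest to the mean of the class I genes were Zfp407 (0.015), Ppil2 (0.018), Mycbp2 (0.018), Dopey2 (0.018) and Irf3 (0.023). With 4 libraries, many genes come close to any pattern, and these names describe likeness only.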

How the data were processed

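The authors removed adapters with CutAdapt, mapped paired 40-base reads to mm9 (NCBI Build 37) with HISAT2 and counted with featureCounts. The values they deposited are raw counts of reads per Ensembl transcript. The strand setting, annotation and treatment of reads with several matches are not given in the sources used here. All but 388 of 95883 transcripts matched GENCODE M1, and those 388 held at most 0.0888% of the counts in a library.

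Counts were summed per gene symbol, genes with a sum over 2 in the 4 libraries were kept (21340), and ages were compared with edgeR 4.0.16 (quasi-likelihood test, trended dispersion, TMM factors between 0.969 and 1.064, prior count 0.125, 2-sided) in R 4.3.3. P-values were adjusted by Benjamini-Hochberg over all genes and called under 0.05. CPM are scaled by TMM. Alternatives included DESeq2 1.42.0, the exact test with the study's dispersion of 0.2, other scalings and filters, a replicate block, and each library left out in turn. Tested on simulated data, the main test recovered 92.5% of 200 genes changed 4-fold in the age comparison (20711 genes, 5.13% of calls false). That share does not give the recovery at counts as low as those of H2-Aa and H2-Ab1. Their log2 fold changes were 2.42 and 2.17, and neither was called. Replicates within an age differed by more than sampling noise (chi-square per degree of freedom 16.2 and 34.6). Poisson intervals cover counting error only.

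The genes and lists were chosen with earlier results of these data known. All 10 genes were named, from each list the genes called or, where none was, the 2 with the largest log2 fold change among those of at least 1 CPM, the 5 closest patterns, transcripts of at least 1 CPM and defining markers. Other names were added for their role. Older symbols were matched through RefSeq synonyms. A few genes within these criteria are not reported. No protein sequence is shown.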

Additional observations from a re-analysis of the deposited data

How the results depend on the processing

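Of the 9 genes tested, 1 was called with all libraries, 0 with the exact test at a dispersion of 0.2, 2 with no filter and 2 with the replicate block, and between 0 and 3 with 1 library left out. H2-Aa was the second, with an adjusted p of 0.0314 and 0.0187, and H2-Aa and H2-Ab1 joined without mature replicate 1, where the only mature library left had 1 and 0 counts of them, so that their fitted folds are no measure of size. Genes called higher numbered 487 with all libraries, 200 with the exact test, 892 with no filter, 970 with the replicate block and 143 with the quasi-likelihood fit of edgeR version 4, an alternative added after seeing the data, and between 0 and 733 with 1 library left out. Genes called lower numbered 96, and 157 with DESeq2, 33 with the exact test, 183 with the robust fit, 265 with no filter, 292 with the replicate block and 24 with edgeR version 4, and between 0 and 145 with 1 library left out. Genes of the pathway lists called higher numbered 4, and 0 with the exact test, 8 with the robust fit, 9 with no filter, 9 with the replicate block and 1 with edgeR version 4, and between 0 and 4 with 1 library left out. Without elderly replicate 1, 37 genes were called higher and 4 lower, and without elderly replicate 2, 0 in either direction. With 1 library left out, log2 fold changes ran from -0.31 to 0.14 for B2m, from -1.04 to 0.27 for Ciita and from -0.06 to 0.63 for Tap1, with the sign turned without elderly replicate 1 for B2m and without elderly replicate 2 for the others. Signs also turned for H2-K1 (0.29) and H2-D1 (0.43) with coding transcripts only, the latter also added after seeing the data. H2-Eb1 kept its direction in all 19 alternatives, with log2 fold changes between 1.55 and 1.87, and was called in 16 of them. The causes of these changes were not tested. The differences between replicates 1 and 2 had a correlation of 0.043 over genes between the ages. This shows no pairing by replicate number common to most genes, and cannot exclude one that acts on some of them. Leaving out 1 library leaves an age with a lone sample, whose spread is assumed to be that of the other age. With 2 libraries per age and under 70 counts of any class II gene in a mature library, differences of these genes may have been missed. These need not be small, as H2-Aa and H2-Ab1 were not called at log2 fold changes of 2.42 and 2.17 with all libraries.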
